A study of Arabidopsis thaliana with 10 samples.

Results

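Boron-deficient Arabidopsis thaliana plants were compared with control plants after 4 days, on 4 of the 10 arrays of a study of nutrient loss. The members were taken by title, 2 arrays of boron-deficient and 2 of control plants, and all 22746 probe sets of the ATH1 array were compared. Each array measured messenger RNA from whole plants of 21 days, and the labels call the 2 arrays of a group biological replicates. All plants had first grown on perlite, a mineral substrate poor in boron, with a solution of 25 µM boron and 3 mM calcium. The control plants stayed on the complete solution and the others were watered with a solution without boron. The treatment protocol and the design text place the start of the deficiency at different ages. The other 6 arrays held control, boron-deficient and calcium-deficient plants after 2 days, at an age of 19 days. Of these the 4 control and boron-deficient arrays are used below for comparison. No genotype other than the species, no ecotype and no transgene is given in the sources used here.

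Boron is taken up by plant roots as boric acid, through channels and borate exporters, and most of it is bound in the cell wall. There borate joins pairs of rhamnogalacturonan II chains, a form of pectin, and growing tissue needs it most because new wall is laid down there. The study's title names branched-chain amino acid metabolism, the synthesis and breakdown of leucine, isoleucine and valine. The breakdown takes place in mitochondria and passes electrons to the respiratory chain, and it is known in plants as a pathway that rises when sugar runs short.

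The median signal of the 4-day arrays lay between 231.6 and 243 and that of the 2-day arrays between 115 and 121. Arrays of different days were thus on different scales, and only the 4-day arrays entered the 4-day fit. The replicate arrays correlated over all probe sets with Spearman coefficients of 0.993 for the controls and 0.992 for the boron-deficient plants, and arrays of different groups with 0.987 to 0.993. The median probe set differed between the control replicates by 0.11 and between the boron-deficient replicates by 0.12 on the log2 scale, and the group means differed by 0.11. Values were taken as log2(signal + 16), so differences of dim probe sets are understated. Leaf transcripts were abundant: RCA, which encodes Rubisco activase, had signals of 24058 and 24039 in controls and 23024 and 24245 in boron-deficient plants. Root transcripts were present too, with PYK10, a root beta-glucosidase, at 5755 and 6107 in controls and 5431 and 5480.2 in boron-deficient plants. The summed signal of the 3 measured root markers was 6012 and 6317 in controls and 5655 and 5712 in boron-deficient plants. That of the 6 measured nuclear photosynthesis genes was 71182 and 68438 in controls and 70539 and 72475 in boron-deficient plants. None of the flower markers had a probe set of its own in the name table. In whole plants, fewer cells of a type and less RNA per cell cannot be told apart.

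After 4 days without boron the plants differed little from controls: only 18 probe sets had group means at least 2-fold apart, 8 higher and 10 lower in the boron-deficient plants. The log2 differences ran from -1.79 to 1.56 over all probe sets. At an adjusted p of 0.05, limma with Benjamini-Hochberg adjustment over the 22746 probe sets called 0 of them (0% of those tested), and the lowest adjusted p was 0.272. At an unadjusted p of 0.05 it called 2067 (9.09%), 930 of them higher (4.09%) and 1137 lower (5%). With 2 arrays against 2, an exact two-sided permutation test of 1 value cannot give a p under 0.333. The median 95% confidence interval of a probe set's difference spanned 0.27 on either side on the log2 scale. Without boron-deficient replicate 2, limma called 16 probe sets, 1 higher and 15 lower. With all 4 arrays no gene difference at 4 days given below passed the test across all probe sets.

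The groups did not overlap, both boron-deficient arrays lying on one side of both controls, for 3620 probe sets that were higher (15.9%) and 5983 that were lower (26.3%). That split moved with the scaling of the arrays: it was 4380 higher and 5061 lower after quantile normalization, and 4493 and 4754 after centring each array on its median. Over all probe sets the median difference was -0.03 as deposited and -0.01 after either scaling. Adding a limit of 1.5-fold left 103 probe sets that were higher (0.453%) and 95 that were lower (0.418%), 198 in all (0.87%). Without that limit 9603 were apart in either direction (42.2%). With 2 arrays against 2, a share of 0.333 of all possible orderings of the arrays already puts the groups apart in either direction. Of the 103, 53 had a single named gene, and of the 95, 36 had one; 49 and 57 had no gene name in the name table.

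**Figure D1:**
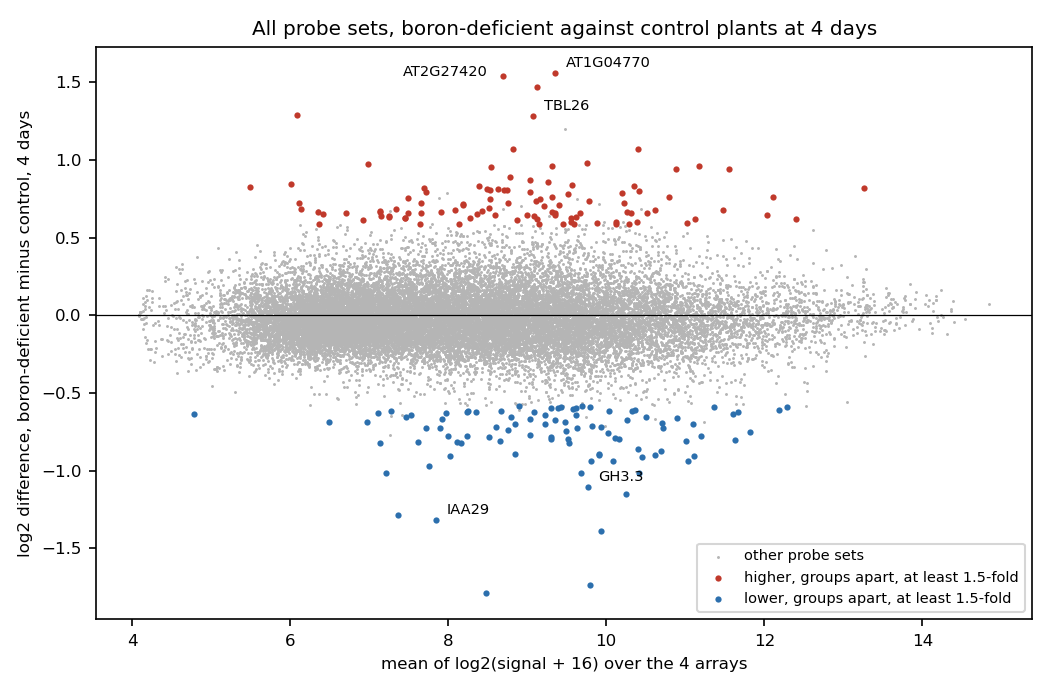
Each point is 1 of the 22746 probe sets, with its mean log2(signal + 16) over the 4 arrays on the horizontal axis and the log2 difference of the group means on the vertical axis. Red (103) and blue (95) points are those whose groups did not overlap and lay at least 1.5-fold apart; they sit between -1.79 and 1.56 and most probe sets lie close to 0.

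The boron-deficient replicates did not lie equally far from the controls. Among the 198 probe sets, replicate 1 was farther from the control mean than replicate 2 for 154 (77.8%), 69 of the 103 that were higher and 85 of the 95 that were lower. For the probe sets that were lower, the median distance was 0.94 in replicate 1 and 0.52 in replicate 2 on the log2 scale. For those that were higher it was 0.78 and 0.63. Values are therefore given for each array. Of the differences of 90 genes named here, 41 moved by over 1.5 times when 1 array was left out, most often boron-deficient replicate 1 (23 genes). Of these 41, 2 are among the 30 genes furthest apart. Those 30 were chosen by the gap between the groups, a choice that itself limits such moves.

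**Figure D2:**
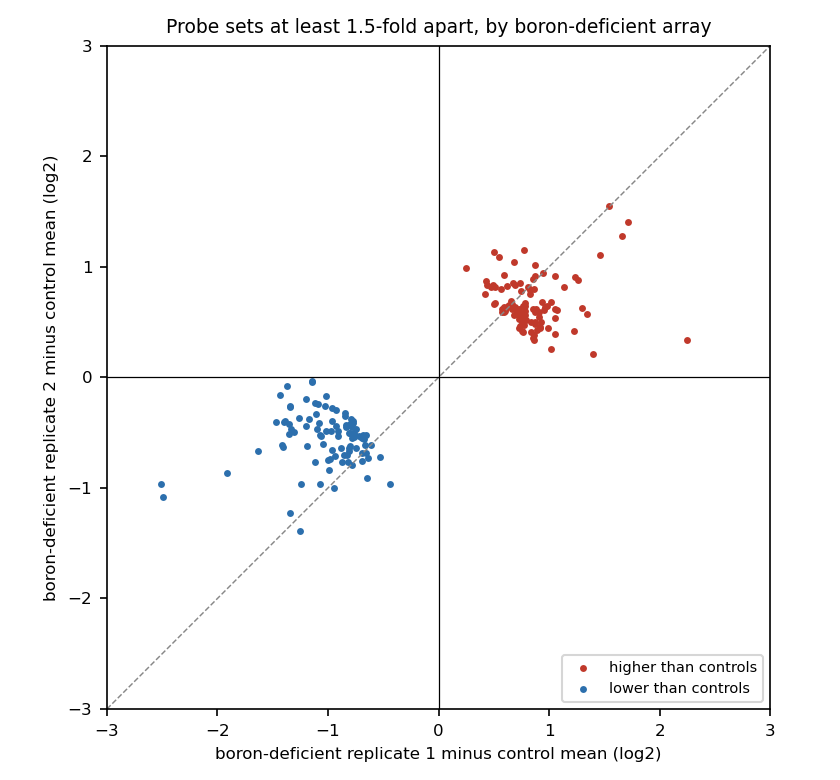
Each point is 1 of the 198 probe sets at least 1.5-fold apart, with the log2 distance of boron-deficient replicate 1 from the control mean on the horizontal axis and that of replicate 2 on the vertical axis; the dashed line marks equal distances. Most blue points (lower, 85 of 95) lie on the side where replicate 1 is farther from the controls, and the red points (higher, 69 of 103) are more evenly spread.

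Of the named single genes, AT2G27420 and AT1G04770 were furthest above the controls. AT2G27420 had signals of 262 and 196 in controls and 690.1 and 695 in boron-deficient plants, a log2 difference of 1.54 ± 0.15 (SE, n = 2 per group; limma, adjusted p = 0.272). AT1G04770 had 432 and 309 in controls and 1238 and 994 in boron-deficient plants, a difference of 1.56 ± 0.18 (limma, adjusted p = 0.32). The name tables give no function for either locus. From general knowledge, AT1G04770 was placed in the list of genes known to rise under sulfur limitation, whose other measured gene was at -0.18. AT2G27420 was placed in the list of proteases and senescence genes, whose 7 measured genes had a median of -0.07. The third was TBL26, of the trichome birefringence-like family whose studied members acetylate wall polysaccharides, at 427 and 254 against 935 and 728, a difference of 1.28 ± 0.24 (limma, adjusted p = 0.392). These 3 genes were chosen for the gap between the groups, so that the boron-deficient arrays stood clear of the controls follows from the choice. For TBL26 both groups were spread.

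The other genes among the 15 furthest above the controls had no symbol. AT3G07090, with signals of 1174 and 1128 in controls and 1826 and 1827 in boron-deficient plants, and AT1G60570, with 141 and 141 against 253 and 234, had close replicates in both groups. Their differences were 0.66 and 0.73. AT1G06000 was at 1052 and 987 in controls and 1996 and 1594 in boron-deficient plants, and AT2G15020 at 397 and 368 against 648 and 703, with differences of 0.80 and 0.79. AT5G62730 was dimmer, at 83.6 and 66.3 against 182 and 143, a difference of 0.97. AT3G14200 reached 1.07, from 367 and 238 to 733 and 558, with wide control replicates. The other 6, AT2G20560, AT3G48460, AT1G66080, AT1G54050, AT3G06530 and AT3G44450, lay between 0.64 and 0.87. Over the 15 genes the adjusted p by limma ran from 0.272 to 0.44.

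The genes furthest below the controls included 2 of the auxin response. IAA29, a repressor of the Aux/IAA family that auxin and shade induce, had signals of 304 and 398 in controls and 137 and 123 in boron-deficient plants. Its log2 difference was -1.32 ± 0.14 (limma, adjusted p = 0.32). GH3.3, an enzyme that joins auxin to amino acids and is itself induced by auxin, was at 1102 and 1448 against 523 and 641, a difference of -1.10 ± 0.17 (limma, adjusted p = 0.32). WES1, the related enzyme GH3.5, was at 2085 and 2791 against 1495 and 1947, a difference of -0.50 ± 0.18. Of the 36 genes in the auxin list 4 were measured, and in 3 of them the groups did not overlap, all lower (26.3% of all probe sets were). The median of the 4 was -0.80 beside -0.03 over all probe sets. Like all lists here, this one was chosen with earlier results of these data known. IAA29 and GH3.3 were also picked for their gap on these arrays, so the count and median are a description only. Among the 7 measured Aux/IAA genes 4 were lower and 2 higher without overlap (26.3% and 15.9% of all probe sets), and IAA29 alone was past 1.5-fold.

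Other genes of this set were lower without overlap and without a symbol. AT5G12050 was at 1329 and 1563 in controls and 812 and 842 in boron-deficient plants, a difference of -0.79. AT1G10140 was at 1015 and 927 against 499.7 and 586, and AT1G30820 at 1366 and 1299.9 against 717 and 848. AT2G15960 was at 1878 and 1991 against 719 and 1244, a difference of -1.02, and here boron-deficient replicate 1 was far below replicate 2. CCL, a gene named for its likeness to the clock-regulated CCR transcripts, showed the same uneven pair, at 1308 and 1278 against 513 and 914 (difference -0.90 ± 0.24). Without boron-deficient replicate 2 these last 2 genes had differences of -1.41 and -1.31 (limma, adjusted p = 0.0279 and 0.0328), in a fit where 1 boron-deficient array stands alone and is assumed to vary like the controls. Without boron-deficient replicate 1 the differences were -0.63 and -0.49 (limma, adjusted p = 0.768 and 0.781). The other 7, AT1G01240, AT5G38710, AT5G62280, AT3G51440, AT4G16000, AT3G50650 and AT2G17850, lay between -0.91 and -0.67.

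**Figure D3:**
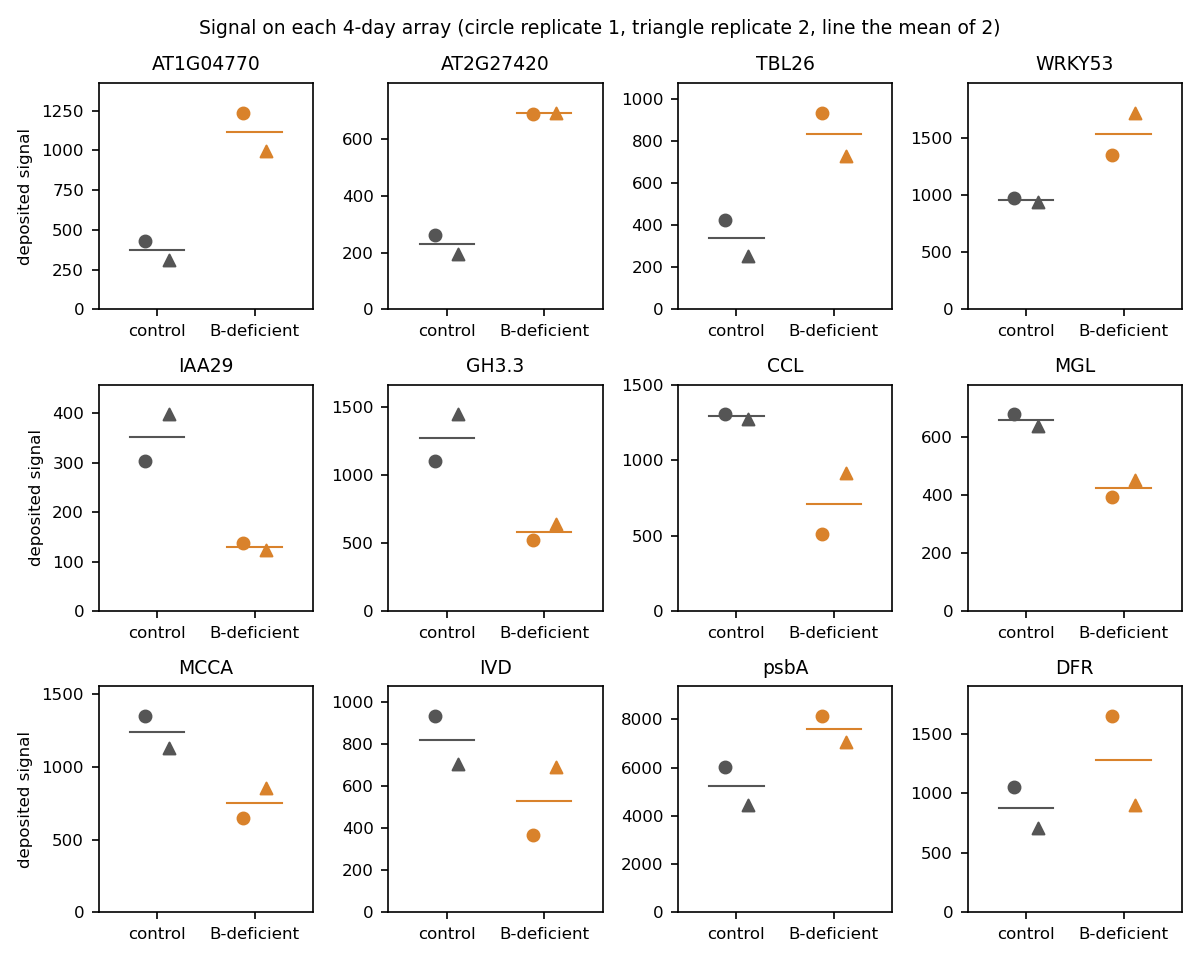
Deposited signal (vertical axes, from 0) of 12 genes on each of the 4 arrays: grey for control and orange for boron-deficient plants, circles for replicate 1, triangles for replicate 2 and a line for the mean of the 2. The groups stand apart for all but DFR, whose boron-deficient replicate 2 lies between the controls, and the boron-deficient pair is wide for CCL, IVD and DFR.

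The breakdown of branched-chain amino acids, which the study's title names, lay toward lower values in the boron-deficient plants, with no gene past the test. Of 11 measured genes of this list, 7 were lower without overlap and 0 higher (background 26.3% and 15.9%), 5 were lower at an unadjusted p of 0.05 (5% of all probe sets), and the median was -0.20. MCCA, the biotin-carrying subunit of methylcrotonyl-CoA carboxylase in leucine breakdown, was at 1351 and 1128 in controls and 648 and 850.3 in boron-deficient plants, a difference of -0.72 ± 0.16 (limma, adjusted p = 0.445). MCCB, the other subunit, was at 697 and 670.3 against 543 and 507 (-0.37 ± 0.11). IVD, isovaleryl-CoA dehydrogenase, the step before in leucine breakdown, was at 934 and 705 against 365 and 688 (-0.68 ± 0.28). Replicate 2 of the boron-deficient plants was barely below the lower control for IVD, whose difference was -0.23 without boron-deficient replicate 1 and -1.12 without replicate 2. ETFQO, which passes electrons from these dehydrogenases to ubiquinone, was at 591 and 465 against 368 and 427 (-0.39 ± 0.15). ALDH6B2, methylmalonate-semialdehyde dehydrogenase of valine breakdown, was at 1187 and 1045 against 888 and 921 (-0.30 ± 0.12). All 5 of these genes lay below both controls on both boron-deficient arrays, and replicate 1 was the lower of that pair in 4 of them. They were named for a low unadjusted p on these same arrays or for the study's title, which favours such separation. In 4 of the 11 measured genes of the list the groups overlapped.

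Of the synthesis and isoleucine-supply list, 5 genes were measured, 2 lower and 1 higher without overlap (26.3% and 15.9% of all probe sets), with a median of -0.06. MGL, methionine gamma-lyase, which can supply isoleucine from methionine, was at 678 and 638 in controls and 393 and 450.3 in boron-deficient plants, a difference of -0.63 ± 0.12 (limma, adjusted p = 0.43). AT2G31810, placed in this list from general knowledge of the loci, was at 3266 and 3155 against 2164 and 2753 (-0.39 ± 0.13). The other 3 lay between -0.06 and 0.13. BCAT4, the branched-chain aminotransferase relative that starts methionine chain elongation for glucosinolates, was at 1831 and 1249 against 2128 and 1820.3 (0.38 ± 0.19), and its groups overlapped. UGT74B1, the glucosyltransferase of the glucosinolate core, was at 1494 and 1257 against 1561 and 1680.1 (0.24 ± 0.13), and AT2G31790 was at 1102 and 1049 against 1641 and 1639 (0.60 ± 0.11). The 3 measured genes of the glucosinolate list thus had a positive difference, 2 of them without overlap (15.9% of all probe sets were higher in this way). Their median of 0.38 was 0.11 without control replicate 2 and 0.64 without control replicate 1.

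Genes known to rise in sugar starvation and darkness lay lower: of 17 listed, 3 were measured, and all 3 were below both controls in both boron-deficient arrays (26.3% of all probe sets were), with a median of -0.72. ATL8, a RING-type ubiquitin ligase, was at 458 and 466 in controls and 208 and 330 in boron-deficient plants (-0.78 ± 0.19). AKINBETA1, a regulatory subunit of the energy-sensing kinase SnRK1, was at 1257 and 1296 against 784 and 1014 (-0.51 ± 0.14). GAT1_2.1, a glutamine amidotransferase-like protein, was at 596 and 389.7 against 216 and 379 (-0.72 ± 0.28). Replicate 1 was the lower of the boron-deficient pair in all 3, and the median of the list was -0.34 without it and -1.10 without replicate 2. Among sugar carriers, SWEET1, a glucose transporter, was at 722 and 522 against 878 and 984 (0.59 ± 0.17). SWEET13, a sucrose transporter, was at 114 and 86.8 against 145 and 132 (0.41 ± 0.13), while 2 of 15 SWEET genes were higher and 5 lower without overlap, beside 15.9% and 26.3% of all probe sets, and 4 and 4 after either scaling.

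Cell wall genes showed no common direction. Of 18 expansins, proteins that loosen walls, 7 were lower and 0 higher without overlap (26.3% and 15.9% of all probe sets), with a median of -0.09, and after quantile normalization 6 were lower and 1 higher. EXPA8 was at 355 and 498 in controls and 252 and 304 in boron-deficient plants (-0.57 ± 0.17). Of 9 xyloglucan endotransglucosylase/hydrolases, which join and trim xyloglucan, 1 was higher and 2 lower without overlap (15.9% and 26.3% of all probe sets), and 2 and 2 after either scaling. XTH20 was at 39.6 and 35 against 61.9 and 48.1 (0.41 ± 0.12), and XTH33 was at 167 and 171 against 139 and 115 (-0.37 ± 0.12). XTH20 was dim, with every signal below the 25th percentile of 90.9. Its difference was 0.54 with 1 and 0.23 with 64 added to the signal in place of 16. XTH19 stood out in boron-deficient replicate 1, at 214 beside 117 in replicate 2 and 119 and 100.1 in controls. Of 15 endoglucanases of glycosyl hydrolase family 9, 4 were higher and 2 lower without overlap (15.9% and 26.3% of all probe sets), and 4 and 1 after centring. GH9A3 was at 134 and 128 against 196 and 188 (0.50 ± 0.10), and GH9C2 was at 465 and 454 against 646 and 619.9 (0.45 ± 0.11), with close replicates in both. Of 22 TBL genes 4 were higher and 7 lower without overlap, beside the same shares of all probe sets, and 5 and 5 after centring. TBL26, described above, was the one past 1.5-fold. BOR1 and NIP5;1, the borate exporter and boric acid channel of roots, are not analysed here. In the transporter list 2 of the 10 genes were measured, both lower without overlap by 0.17 and 0.12 on the log2 scale. Over all probe sets 26.3% were lower in this way, and neither gene reached -0.28, the 5th percentile of all differences. AT5G25430, the gene at -0.12, was also dim, with a mean signal of 60.5, below the 25th percentile of 90.9.

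Enzymes of secondary metabolism came next. Of 48 UDP-glycosyltransferases, which attach sugars to small molecules, 11 were higher and 8 lower without overlap (15.9% and 26.3% of all probe sets), and 13 and 5 after centring. GT72B1, which glucosylates phenolic compounds, was at 1801 and 1569 in controls and 2501 and 2594 in boron-deficient plants (0.59 ± 0.11). UGT78D1, a flavonol rhamnosyltransferase, was at 1366 and 1085 against 1895 and 1537 (0.48 ± 0.16). UGT76B1, which glucosylates isoleucic and salicylic acid, was at 960.3 and 1209 against 625 and 805 (-0.59 ± 0.17), and UGT71B6, which acts on abscisic acid, was at 594 and 549.9 against 389.7 and 475 (-0.40 ± 0.13). In the phenylpropanoid list of 6 measured genes, DFR, the dihydroflavonol reductase of anthocyanin synthesis, was at 1049 and 711 against 1653 and 899 (0.49 ± 0.29). AT5MAT, which acylates anthocyanins, was at 139 and 108 against 221 and 120.3 (0.37 ± 0.25), and AT4G14090 was at 394 and 272 against 705 and 323 (0.52 ± 0.33). These 3 were high in boron-deficient replicate 1, with replicate 2 between the controls. Without replicate 1 their differences were 0.056, -0.025 and -0.021, and the median of the list went from 0.43 to -0.023. HCT, of the lignin branch, was at 2972 and 3207 against 2537 and 2907 (-0.18 ± 0.11).

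**Figure D4:**
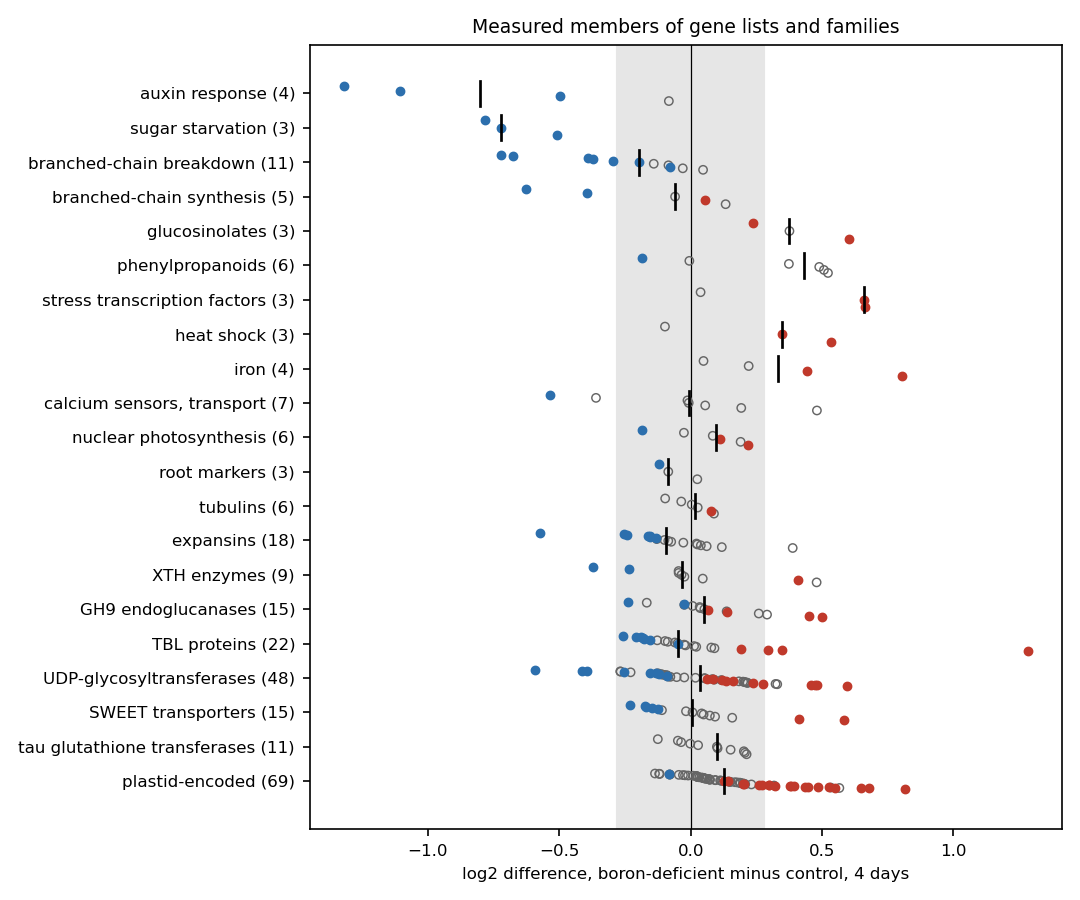
Each point is a measured gene of the list or family named on the left (number measured in parentheses), placed at its log2 difference between boron-deficient and control plants at 4 days; filled points are genes whose groups did not overlap (red higher, blue lower), bars are medians and the grey band holds the middle 90% of all probe sets, -0.28 to 0.28. The auxin, starvation and branched-chain breakdown points lie to the left, the plastid-encoded ones to the right, and most families lie around 0.

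Stress-related transcription factors were measured in 3 cases, 2 of them higher without overlap (15.9% of all probe sets were). The remaining gene was at 0.04. Of the 6 measured WRKY genes 1 was higher and 1 lower without overlap (15.9% and 26.3% of all probe sets), with a median of -0.16. WRKY53, a regulator of leaf senescence, was at 976 and 943 in controls and 1354 and 1727 in boron-deficient plants (0.66 ± 0.14). STZ, the zinc-finger repressor ZAT10, was at 1422 and 702 against 1427 and 1770.1 (0.66 ± 0.29), with control replicate 1 barely below boron-deficient replicate 1; without control replicate 2 its difference was 0.16. Among heat shock genes, ATHSP22.0, a small heat shock protein, was at 78.6 and 107 against 143 and 137 (0.53 ± 0.14), and AT5G48570, the FK506-binding protein FKBP65, was at 1409.7 and 1313 against 1571 and 1921 (0.35 ± 0.13). These were the 2 of 3 measured heat shock genes that were higher without overlap, beside 15.9% of all probe sets. The remaining gene was at -0.098. Of the calcium list 7 genes were measured and in 1 the groups did not overlap, beside 42.2% of all probe sets. That gene was CML38, a calmodulin-like protein, at 405 and 309.7 against 269 and 213 (-0.54 ± 0.16). Among iron genes, AT3G13610, which RefSeq names F6'H1, an enzyme of scopoletin synthesis, was at 513 and 573 against 785 and 705 (0.44 ± 0.12). AT1G47400 was at 843 in boron-deficient replicate 1 and at 361 in replicate 2, beside 268 and 357 in controls, so that its difference of 0.81 was 0.21 without replicate 1. RR16, a type-A response regulator that cytokinin induces, was at 89.8 and 84.8 against 112 and 106 (0.28 ± 0.10), and EIN3, the central transcription factor of ethylene signalling, was at 1633 and 1599 against 1144 and 1563 (-0.27 ± 0.16). Of the tau class glutathione transferases, 11 were measured and in 0 did the groups lie apart in either direction, beside 42.2% of all probe sets. GSTU20 was at 1639.9 and 1781 against 2294 and 1715. Among 29 serine carboxypeptidase-like genes 4 were higher and 6 lower without overlap, beside 15.9% and 26.3% of all probe sets, and 7 and 4 after either scaling. Of these, scpl48 was at 477 and 484 against 656 and 677 (0.46 ± 0.11) and scpl31 at 119 and 121 against 97 and 84.9 (-0.35 ± 0.10). Of 21 beta-glucosidases 4 were higher and 7 lower without overlap, beside the same shares of all probe sets, with BGLU47 at 181 and 181 against 286 and 213 (0.42 ± 0.14) and BGLU33 at 438 and 504 against 380.4 and 369 (-0.31 ± 0.12).

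The genes encoded in the plastid itself leaned toward higher values after 4 days, with no gene past the test. Of 69 measured, 20 were higher and 1 lower without overlap (background 15.9% and 26.3%), 13 were higher and 0 lower at an unadjusted p of 0.05 (4.09% and 5%), and the median was 0.13. With each array centred on its median the split was 27 higher and 0 lower, and after quantile normalization 21 and 2. The 12 ATP synthase and cytochrome b6f genes had a median of 0.28, which was 0.13 without boron-deficient replicate 1 and 0.10 without control replicate 2, and 6 of them were higher and 0 lower without overlap. atpF, a subunit of the plastid ATP synthase, was at 3373 and 3315 in controls and 4499 and 6133 in boron-deficient plants (0.65 ± 0.15), and atpA, its alpha subunit, was at 5084 and 10806 against 10853 and 15749 (0.82 ± 0.33). The control replicates of atpA lay far apart, and its difference was 0.27 without control replicate 1 and 1.36 without control replicate 2. petL, of the cytochrome b6f complex, was at 2821 and 2649 against 4083 and 3366 (0.44 ± 0.12), and petG at 293 and 291 against 541 and 337 (0.53 ± 0.20).

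Among the 20 plastid genes of the photosystems 8 were higher and 1 lower without overlap (15.9% and 26.3% of all probe sets). Their median was 0.16, and 0.027 without control replicate 2. psbA, the D1 protein of photosystem II, was at 6039 and 4456 in controls and 8158 and 7072 in boron-deficient plants (0.55 ± 0.15), and psbI at 1417 and 1594 against 1982 and 1940.2 (0.38 ± 0.11). psbK was at 2115 and 2159.7 against 2397 and 3229 (0.38 ± 0.15), and psbM at 14035 and 13306 against 16194 and 15297 (0.20 ± 0.08). Of 10 genes of the NADH dehydrogenase-like complex 2 were higher without overlap, beside 15.9% of all probe sets. These were ndhK at 1002 and 849 against 1372 and 1080.2, and ndhJ at 1612 and 1168 against 2115 and 1660. Of 19 genes of the plastid ribosome and RNA polymerase 2 were higher without overlap, beside the same share of all probe sets. Among these, rpl14 was at 1395 and 1070.3 against 2249 and 1714 (0.68 ± 0.18). The summed signal of the 69 genes was 401007 and 368169 in controls and 419380 and 420356 in boron-deficient plants, and without control replicate 2, the lower control, the median difference was -0.0005 beside -0.05 over all probe sets. Many of these genes share transcripts in the plastid, so they are not independent of each other. Nuclear photosynthesis genes were close to the controls: PRK, phosphoribulokinase, differed by 0.22 ± 0.09, LHCB4.1 by 0.11 ± 0.07 and LHCB4.2 by -0.18 ± 0.08.

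The same contrast after 2 days used other plants, other arrays and other controls, and it shows how far the 4-day differences were seen there. Those plants were 19 days old and the 4-day plants 21. Between the days, time without boron and plant age therefore cannot be told apart. Limma called 1 probe set higher (0.0044%) and 0 lower (0%) at an adjusted p of 0.05, and 7.28% higher and 4.54% lower at an unadjusted p of 0.05. Of the 103 probe sets at least 1.5-fold higher at 4 days, 73 (70.9%) had a positive difference at 2 days, where 42.9% of all probe sets did. In 52 (50.5%) the groups were apart in the same direction at 2 days, beside 20.4% of all probe sets, and in 12 they were apart in the opposite one. Of the 95 that were lower, 82 (86.3%) had a negative difference at 2 days, beside 57.1%, and 57 (60%) were apart in the same direction, beside 24.5%, with 6 in the opposite one. The median 2-day difference was 0.35 for the first set and -0.65 for the second. Of the 30 genes furthest apart at 4 days, 25 had the same sign at 2 days, 11 of the 15 higher and 14 of the 15 lower, and in 17 the 2-day groups were apart in that direction, 5 higher and 12 lower.

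**Figure D5:**
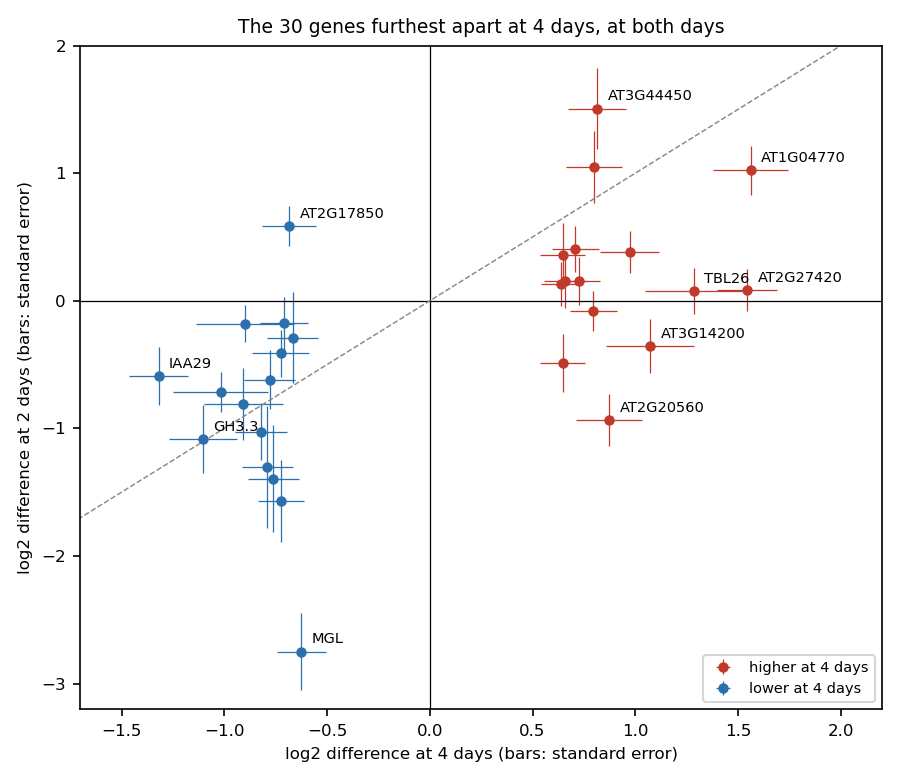
Each point is 1 of the 30 genes furthest apart at 4 days, with its log2 difference at 4 days on the horizontal axis and at 2 days on the vertical axis (bars, standard errors; n = 2 arrays per group and day); the dashed line marks equal differences. The lower genes (blue) are below 0 at 2 days for 14 of 15, MGL lies far below the line, and the higher genes (red) lie above 0 at 2 days for 11 of 15, from 0.07 to 1.51, and below 0 for AT2G15020, AT2G20560, AT1G54050 and AT3G14200.

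For some of these genes the 2 days had like differences. GH3.3 differed by -1.10 at 4 days and -1.08 at 2 days, AT1G10140 by -0.82 and -1.03, and AT1G04770 by 1.56 and 1.02. For MGL it was -0.63 at 4 days beside -2.75 at 2 days, and the difference between the days was 2.05 ± 0.33 (limma over the 8 arrays, quantile normalized, adjusted p = 0.126). The breakdown enzymes were also further from 0 at 2 days: MCCA was at -2.09, IVD at -2.22 and ETFQO at -1.63, with adjusted p for the difference between days of 0.383, 0.381 and 0.311. In the other direction, AT2G27420 differed by 0.09 at 2 days (adjusted p of the difference between days 0.126) and TBL26 by 0.07 (adjusted p 0.332). GSTU20, at 0.21 after 4 days, had been at 2.22 after 2 days (adjusted p 0.149). By list, the 4 auxin genes were all lower without overlap at 2 days, as were the 3 starvation genes and 7 of the 11 breakdown genes, beside 24.5% of all probe sets, and 1 breakdown gene was higher. The 69 plastid genes had another balance at 2 days, with 11 higher and 27 lower without overlap and a median of -0.10, beside 20.4% and 24.5% of all probe sets; the difference between days was tested gene by gene and passed for none of those named here.

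Over all probe sets, the difference between the responses of the 2 days passed an adjusted p of 0.05 for 2 (0.00879%), and 2112 passed an unadjusted p of 0.05 (9.29%). Both have no gene name in the name table and are given by their probe set IDs, chosen after their values were seen. Probe set 260248_at was at 635 and 567 in controls and 1258 and 1147 in boron-deficient plants at 4 days, and at 374 and 357 against 99.7 and 131 at 2 days. Probe set 266841_at was at 291 and 239 against 481 and 469 at 4 days, and at 217 and 197 against 67.2 and 61.9 at 2 days. Each was thus higher than controls at 4 days and lower at 2 days, by 2.62 and 2.39 between days (limma, adjusted p = 0.0264 and 0.0234). The count was 0 when any 1 of the 4-day arrays or boron-deficient replicate 1 of 2 days was left out, 30 without control replicate 1 of 2 days and 50 without control replicate 2 of 2 days.

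Of the 105 measured genes of the lists, 14 were at least 1.5-fold apart with groups that did not overlap, beside 0.87% of all probe sets, and the lists were chosen with earlier results of these data known. Counted by the 1.5-fold limit alone, whether or not the groups overlapped, the number was also 14. By that looser count it was 9 without boron-deficient replicate 1 and 22 without boron-deficient replicate 2. It was 12 and 16 with pseudocounts of 64 and 1.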

How the data were processed

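Total RNA of whole plants was labelled with biotin and hybridized to Affymetrix ATH1 arrays, per the labels' protocols. The values are signal intensities per probe set on a linear scale as deposited; GCOS 1.4 made them, as the submitters' processing notes say. To what target the arrays were scaled is not given in the sources used here. Intensities of the 4 arrays of 4 days were taken as log2(signal + 16) with no filter and compared in R 4.3.3 by limma 3.58.1, using moderated tests, an intensity trend, 2 residual degrees of freedom and Benjamini-Hochberg adjustment over 22746 probe sets at 0.05. That fit also gave the standard errors and the 95% intervals. The 2-day arrays were fitted in the same way on their own, and the difference between days over 8 arrays after joint quantile normalization. For arrays, their number limits the precision. The fit was tested on simulated data.

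The name table gives a single gene to 13513 probe sets, several to 503 and none to 8730. Of the single genes 13436 matched the RefSeq annotation of TAIR10.1. A gene with several probe sets of its own was taken by the brightest. Named genes were the 15 per direction with the largest gap between groups, among genes with a mean signal at or above the 25th percentile (90.9), and up to 4 members of each list by unadjusted p, with IVD, MCCA, MCCB, BCAT4 and MGL added. Members, lists and rules were chosen with earlier results of these data known, and the 17 gene families were chosen by symbol after the annotation had been seen. Some loci without a symbol were placed in lists from general knowledge. The 31 lists hold 622 genes, of which 105 in 26 lists were measured. A difference counts as apart where both arrays of a group lie beyond both arrays of the other.

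Deviations from the group means correlated at 0.0486 between arrays with the same replicate number at 4 days, so the numbers were not taken as pairs. Alternatives were quantile normalization, median centring, pseudocounts of 1 and 64, a filter at the 25th percentile, no trend, all 10 arrays, the replicate block and each array left out. The p-values measure the spread between the arrays as labelled. For the boron-deficient arrays of 2 days the titles and the descriptions number the replicates differently, and the titles were used. Plots used matplotlib 3.10.9 (Python 3.11.15).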

Additional observations from a re-analysis of the deposited data

Results flagged for a closer look

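In 15 of the genes named above, both boron-deficient arrays lay on one side of both controls at 4 days and on the other side at 2 days. They were picked for this pattern, and the share of all probe sets with it was not counted. At 4 days 42.2% of all probe sets were apart in either direction, and at 2 days 20.4% were higher and 24.5% lower. The difference between the days was tested by limma over the 8 control and boron-deficient arrays, and in none of the 15 did it pass, with adjusted p from 0.103 for AT2G20560 to 0.6 for atpA. Among genes higher at 4 days, AT2G20560 was at 0.87 and then -0.94 at 2 days on the log2 scale, AT1G54050 at 0.65 and -0.49, and AT3G14200 at 1.07 and -0.36. The heat shock genes AT5G48570 and ATHSP22.0 were at -1.02 and -0.24 at 2 days, beside 0.35 and 0.53 at 4 days. The plastid genes psbA, psbI, psbK, atpA and atpF were at -0.26, -0.26, -0.15, -0.058 and -0.17 at 2 days and higher at 4 days. Among genes lower at 4 days, AT2G17850 was at 0.58 at 2 days, EXPA8 at 0.77, HCT at 0.36, LHCB4.2 at 0.61 and PYK10, a root marker, at 0.71.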

How the results depend on the processing

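At 4 days limma called 0 probe sets with quantile normalization, median centring, pseudocounts of 1 and 64, the filter, no trend, and without either control or boron-deficient replicate 1. It called 1 with all 10 arrays (AT2G27420), and leaving out 1 array at a time gave 0 to 16. With the replicate block it called 91, 57 higher and 34 lower, on 1 residual degree of freedom; the replicate numbers share only a number here, with a correlation of 0.0486 between same-numbered deviations over 2 pairs. List genes with a difference of at least 1.5-fold, whether or not the groups overlapped, numbered 9 to 22 when 1 array was left out. Probe sets at least 1.5-fold apart numbered 119 higher and 86 lower with quantile normalization, 118 and 85 with centring, and 95 and 93 with the filter. The response difference between days, 2 calls, had 35 with all 10 arrays, added after seeing the data, 0 with the replicate block, and 0 to 50 with 1 array left out. The boron comparison at 2 days had 1 call, 3 with quantile normalization, 23 with the replicate block, 0 to 37 with 1 array left out and 502 with replicate numbers crossed, added after seeing the data because the 2-day correlation was -0.216. Of 1078 alternative values of 90 named genes, 1046 kept their direction and side of the threshold, 30 came to pass it, 27 of them with the replicate block, and 2 turned sign: with 1 array left out, AT4G14090 ran from -0.021 to 1.07 and AT5MAT from -0.025 to 0.77. None of the 90 named genes passed the test with the main settings, and the alternatives reuse the same arrays. The count of values kept therefore does not measure how steady the sizes were. GSTU20, counted as kept, went from 0.21 to 0.0049 without boron-deficient replicate 1. With 2 arrays per group, log2 differences under 0.27 are within the median 95% confidence interval.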
